A study of Homo sapiens with 18 samples.

Results

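The genes described here are 10 members of the transcriptional response to amino acid shortage that is run by ATF4: ATF4, DDIT3, ATF3, TRIB3, CHAC1, ASNS, PSAT1, PHGDH, SESN2 and DDIT4. They were chosen by name, as the rows of the count table that carry these symbols, and all 10 of 10 had a row among the 20705 genes. Poly-A RNA was sequenced from CHL1 and A375, established human melanoma cell lines, in 18 libraries that form 9 groups of 2 replicates. CHL1 (BRAF and NRAS wild type, p53 mutant, grown in DMEM) was given DMSO for 72 hours, the CDK4/6 inhibitor palbociclib (CDK4/6i) at 1 μM for 72 hours or 6 days, or the PRMT5 inhibitor GSK3326595 (PRMT5i) at 500 nM for 72 hours. A375 (BRAF mutant, p53 wild type, grown in RPMI-1640) had the same 4 groups and a DMSO control of 6 days as well. CHL1 had no control of 6 days, so its 6-day libraries were set against the control of 72 hours. Each genotype stands for a single cell line, and line, p53 status and medium cannot be told apart.

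ATF4 is a transcription factor whose protein is made in larger amounts when the translation factor eIF2 is phosphorylated. The kinases that do this sense, among other stresses, uncharged tRNA (GCN2) and unfolded protein in the endoplasmic reticulum (PERK). ATF4 protein then activates genes that import and make amino acids, charge tRNA and, under prolonged stress, slow growth or favour death. Because much of this control is translational, the ATF4 transcript level is not a measure of ATF4 protein, which was not measured here.

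The members fall into 4 roles. The transcription factors are ATF4 (GRCh37 chr22:39915700-39918688, plus strand), DDIT3, also called CHOP, which acts in prolonged stress (chr12:57910371-57915520, minus strand), and ATF3, which is induced by many stresses (chr1:212738676-212794119, plus strand). The feedback and death-linked genes are TRIB3, a pseudokinase that restrains ATF4 and AKT signalling (chr20:343479-378203, plus strand), and CHAC1, an enzyme that degrades glutathione (chr15:41245160-41248710, plus strand). The biosynthetic enzymes are ASNS, asparagine synthetase (chr7:97480989-97501854, minus strand), and the serine pathway enzymes PHGDH (chr1:120191034-120286841, plus strand) and PSAT1 (chr9:80912041-80945009, plus strand). The mTORC1 inhibitors are SESN2, a leucine-sensing sestrin that p53 also activates (chr1:28586029-28609002, plus strand), and DDIT4, also called REDD1 (chr10:74033678-74035794, plus strand). All of these are protein-coding genes, and the counts sum reads over their exons. Exons of DDIT3 overlap exons of MARS1 and MBD6 on the other strand. The counting ran at HTSeq's default settings, which take strand into account, but whether the libraries kept strand is not given in the sources used here, and if they did not, reads of DDIT3 and of these neighbours cannot be told apart.

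ATF4 binds DNA with C/EBP proteins at a composite element, searched here as TGATGNAA on both strands in the RefSeq promoter windows (250 bases before to 50 after each start, GRCh38.p14). All 10 members had a window, 16 windows in all, and 3 windows held the element, each in a different gene. Of all 35116 windows, 3.62% held it. The cyclic AMP response element TGACGTCA, to which ATF and CREB proteins bind, was in 0 of the 16 windows and in 1.85% of all. The 3 matches are printed because ATF3 and CHAC1 were the members with the largest rises under CDK4/6i in CHL1 at 72 hours while ASNS did not pass the test there. Capitals mark the element, and each stretch of 60 bases reads 5′ to 3′ on the strand of its gene.
ATF3 (GRCh38.p14 chr1:212565190-212565249, plus strand): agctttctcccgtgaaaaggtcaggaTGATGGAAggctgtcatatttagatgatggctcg
CHAC1 (GRCh38.p14 chr15:40953236-40953295, plus strand): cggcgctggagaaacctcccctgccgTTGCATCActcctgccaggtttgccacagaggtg
ASNS (GRCh38.p14 chr7:97872443-97872502, minus strand): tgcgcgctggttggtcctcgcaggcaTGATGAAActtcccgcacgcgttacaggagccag
In ATF3 and ASNS the element lies on the strand of the gene, with its first base 191 and 68 bases before the start. In CHAC1 it lies on the opposite strand, and the printed match begins 209 bases before the start. A match is a description of letters in these windows, not a binding site.

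Total counts were 16213475 to 37424081 per library, and the lowest count of a member in a library was 37 reads (CHAC1). Of the 8 melanocyte lineage markers 6 had a row. MITF lay at 69.0 to 177 CPM (reads scaled to a common library size) over the 9 group means, PMEL at no more than 3.00 CPM, and DCT at 0 reads in both A375 controls of 72 hours. Of the 4 epithelial markers 3 had a row, and EPCAM, the only marker of that list printed here, did not pass 2.02 CPM in any group mean. The other markers with a row are not printed, so neither list is read from these genes. The abundance of GC-rich against GC-poor transcripts differed between libraries, with each gene taken relative to its median over all libraries of its line. On the log2 scale CHL1 under PRMT5i stood at -2.86 and -2.20. The A375 controls of 6 days stood at -2.54 and -1.24, against -0.19 to 0.56 in the other 14. Results that rest on these 4 libraries are therefore given with and without a correction for GC content. The A375 libraries of 72 hours form a library set of their own by their labels, and all others form a second set, so that time in A375, and the lines at 72 hours, cannot be told apart from library set. In bulk RNA, fewer cells with a transcript and less of it per cell cannot be told apart.

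**Figure D1:**
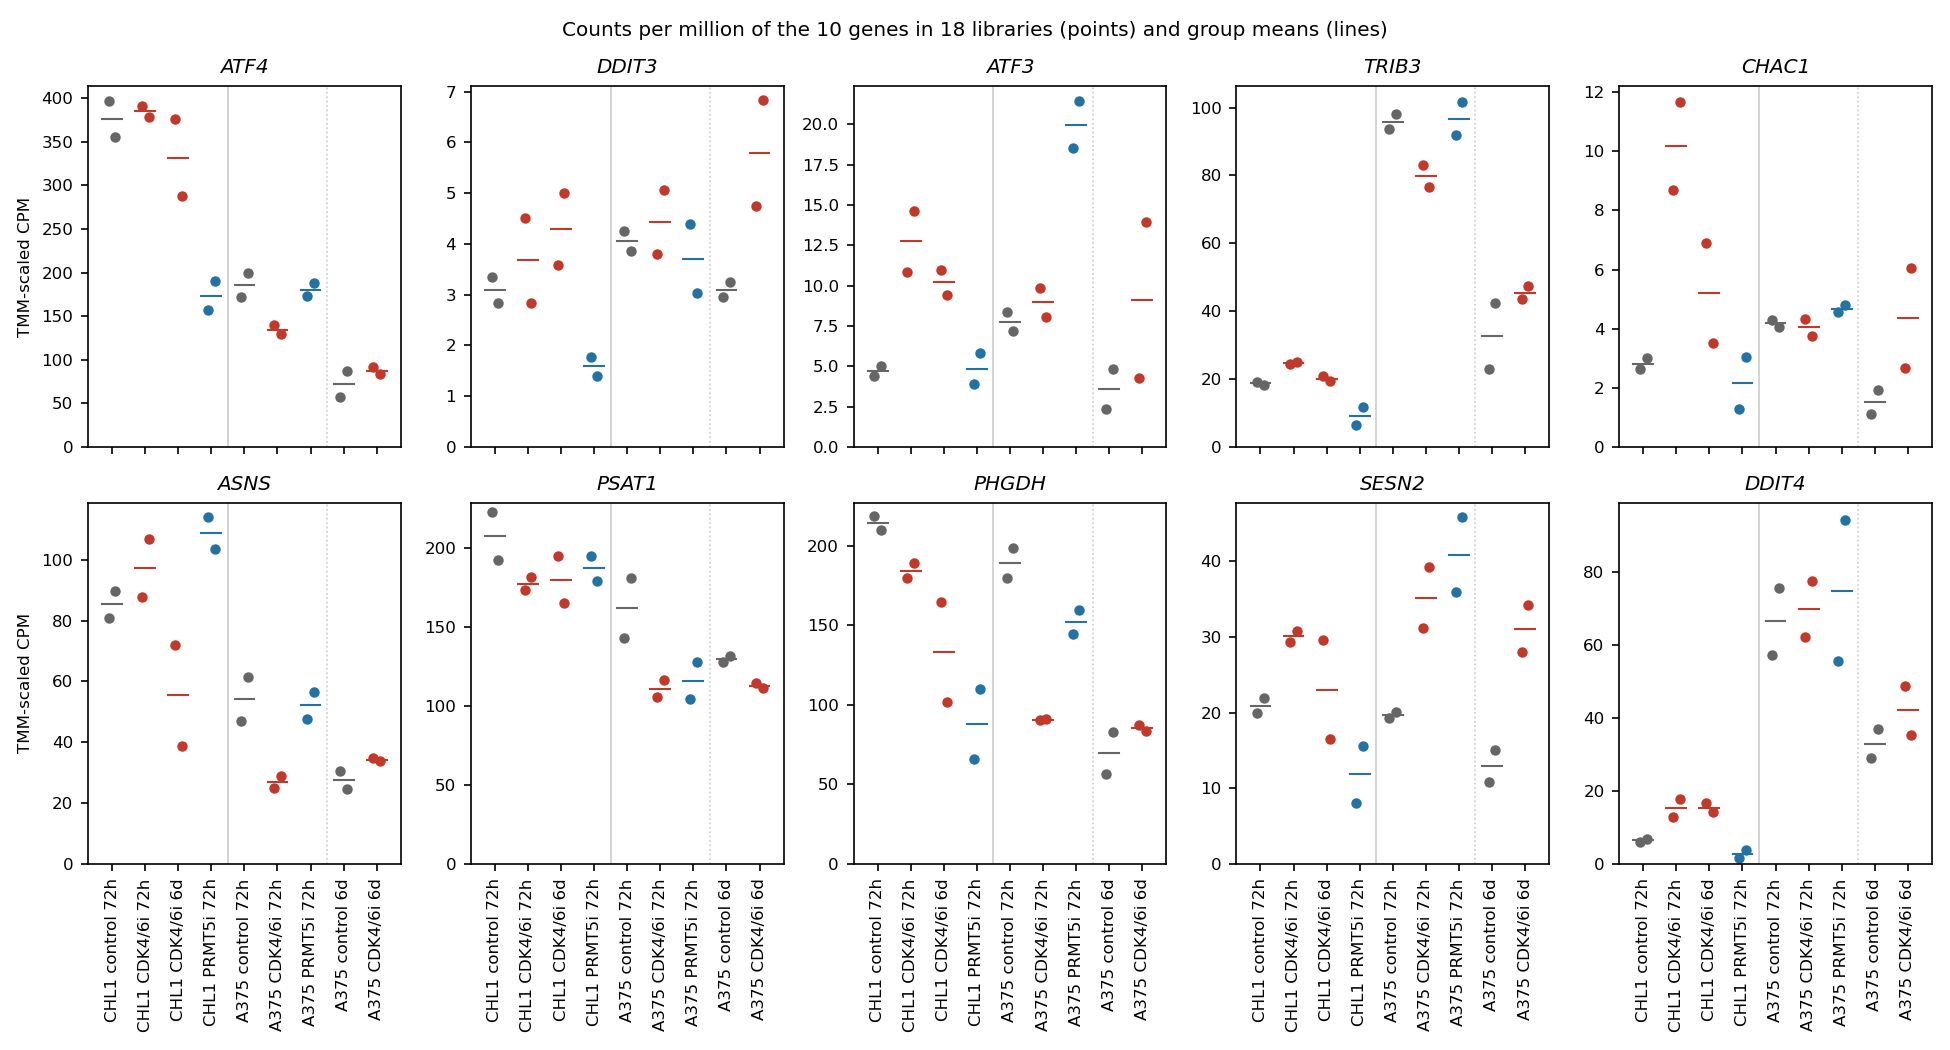
TMM-scaled CPM (linear axes from 0) of the 10 genes in the 18 libraries, as points, with group means as short lines. Grey marks DMSO controls, red CDK4/6i and blue PRMT5i; the solid line parts CHL1 from A375 and the dotted line parts the A375 libraries of 6 days. DDIT4 was at 28.9 CPM or more in the A375 libraries and at 17.8 CPM or less in the CHL1 libraries, and ATF3 reached 18.5 and 21.4 CPM in A375 PRMT5i.

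Among the untreated cells of 72 hours, ATF4 had the highest level per kilobase of transcript of the 10 members in both lines, at 186 CPM per kilobase in CHL1 and 91.9 in A375. PSAT1 (94.1 and 73.4) and PHGDH (67.4 and 59.4) came next, also in CPM per kilobase. The lowest level belonged to CHAC1, at 1.85 in CHL1 and 2.75 in A375. TRIB3 (7.94) and DDIT4 (3.69) stood below ASNS (35.8) in CHL1, whereas in A375 TRIB3 (40.7) and DDIT4 (38.0) stood above ASNS (22.7), all in CPM per kilobase.

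Between the control lines 2 members were higher in CHL1 and 2 lower, where 58.9% of all 20705 genes passed the test (29.3% higher, 29.6% lower; edgeR's quasi-likelihood test at a Benjamini-Hochberg adjusted p below 0.05, used throughout). DDIT4 measured 6.04 and 6.84 CPM in the CHL1 controls and 57.2 and 75.5 CPM in the A375 controls. It was 10.3-fold lower in CHL1 (log2 fold change -3.36 ± 0.33 SE, adjusted p = 6e-08). TRIB3 measured 19.2 and 18.2 CPM in CHL1 and 93.6 and 98.2 CPM in A375, a 5.12-fold difference (-2.36 ± 0.26, adjusted p = 2.74e-07). Neither gene's levels overlapped between the lines at 72 hours. In the A375 controls of 6 days, which share the library set of CHL1 but carry the low abundance of GC-rich transcripts, DDIT4 measured 28.9 and 36.8 CPM and TRIB3 23.0 and 42.3 CPM. The opposite order held for ATF4, with 397 and 356 CPM in CHL1 and 172 and 199 CPM in A375, 2.03-fold higher in CHL1 (1.02 ± 0.20, adjusted p = 0.000205). The same direction held for ASNS at 0.65 ± 0.23 (adjusted p = 0.0202), a call lost with the GC correction (0.43, adjusted p = 0.0734) and without CHL1 control replicate 2 or A375 control replicate 1 (0.44 to 0.89 over the libraries left out). Among the 13675 genes with a GC value 69.3% passed with the correction and 63% without it. SESN2 did not pass the test, at 19.9 and 21.9 CPM in CHL1 and 19.3 and 20.1 CPM in A375 (0.08 ± 0.28), and its groups overlapped.

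The first question was how the genes responded to CDK4/6i. In CHL1 at 72 hours ATF3, CHAC1 and DDIT4 rose and no member fell, where 4.98% of all genes passed the test (2.27% higher, 2.72% lower). CHAC1 measured 2.63 and 3.01 CPM in the controls and 8.70 and 11.7 CPM under CDK4/6i. That is a 3.61-fold rise (log2 fold change 1.85 ± 0.38, adjusted p = 0.0202). Behind these levels stand 76 and 85 reads in the controls and 233 and 325 in the treated libraries. The ATF3 levels were 4.42 and 5.00 CPM in the controls and 10.9 and 14.6 CPM under CDK4/6i, a 2.70-fold rise (1.43 ± 0.25, adjusted p = 0.00877). For DDIT4 they were 6.04 and 6.84 CPM and then 12.9 and 17.8 CPM, a 2.38-fold rise (1.25 ± 0.31, adjusted p = 0.0419). In all 3 genes each treated library lay above each control. That was also so for TRIB3 and SESN2, and PSAT1 and PHGDH lay below both controls, though none of these was called. The share of all genes separated in this way was not counted in any comparison.

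The transcript of ATF4 itself did not pass the test in these libraries, with 397 and 356 CPM in the controls and 391 and 379 CPM under CDK4/6i (0.03 ± 0.18). None of the biosynthetic enzymes passed it either, at 0.19 ± 0.24 for ASNS, -0.23 ± 0.16 for PSAT1 and -0.22 ± 0.25 for PHGDH. DDIT3, with 79 to 121 reads in these 4 libraries, was at 0.25 ± 0.28, TRIB3 at 0.40 ± 0.24 and SESN2 at 0.52 ± 0.31. The median of the 10 members was 0.32 beside 0 for all genes. The 3 rises kept their calls with the GC correction, at 1.48 for ATF3, 1.70 for CHAC1 and 1.15 for DDIT4, where 16.1% of the genes with a GC value passed (6.7% of the same genes without it). When any 1 of the 4 libraries was left out the test called 0 or 1 member, ATF3 without CDK4/6i replicate 1, while the log2 fold changes stayed at 1.20 to 1.62 (ATF3), 1.62 to 2.04 (CHAC1) and 1.00 to 1.45 (DDIT4).

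After 6 days of CDK4/6i in CHL1, ATF3 and DDIT4 were still higher than in the control of 72 hours, where 16.6% of all genes passed the test (8.83% higher, 7.8% lower). ATF3 stood at 11.0 and 9.45 CPM, 2.19-fold above the controls (1.13 ± 0.25, adjusted p = 0.0103), and DDIT4 at 16.5 and 14.1 CPM, 2.40-fold above (1.26 ± 0.31, adjusted p = 0.0180). Without either control, or without 6-day replicate 1, both calls were lost, with log2 fold changes of 1.00 to 1.25 and 1.13 to 1.39 over all libraries left out. CHAC1 lay at 6.90 and 3.53 CPM, above both controls, but did not pass the test (0.91 ± 0.39, adjusted p = 0.133).

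The 2 libraries of 6 days disagreed on the enzymes. ASNS measured 72.1 CPM in replicate 1 and 38.9 CPM in replicate 2, against 80.9 and 89.7 CPM in the controls (-0.60 ± 0.25, adjusted p = 0.117). PHGDH measured 165 and 102 CPM, against 219 and 210 CPM (-0.66 ± 0.25, adjusted p = 0.0956). Both genes were below their controls in each library and neither passed the test. Without 6-day replicate 1 both did, at -1.13 (adjusted p = 0.00843) and -1.07 (adjusted p = 0.0327), and corrected for GC content PHGDH did (-0.67, adjusted p = 0.0475), where 32.8% of the genes with a GC value passed (21.1% uncorrected). Compared directly, 6 days against 72 hours of CDK4/6i called 0 members by edgeR, with 2 at an unadjusted p below 0.05 (ASNS -0.79 ± 0.25, CHAC1 -0.94 ± 0.37). In that comparison 0.0145% of all genes passed, and DESeq2 also called 0 members. Without 6-day replicate 1 ASNS passed (-1.32, adjusted p = 0.0365).

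**Figure D2:**
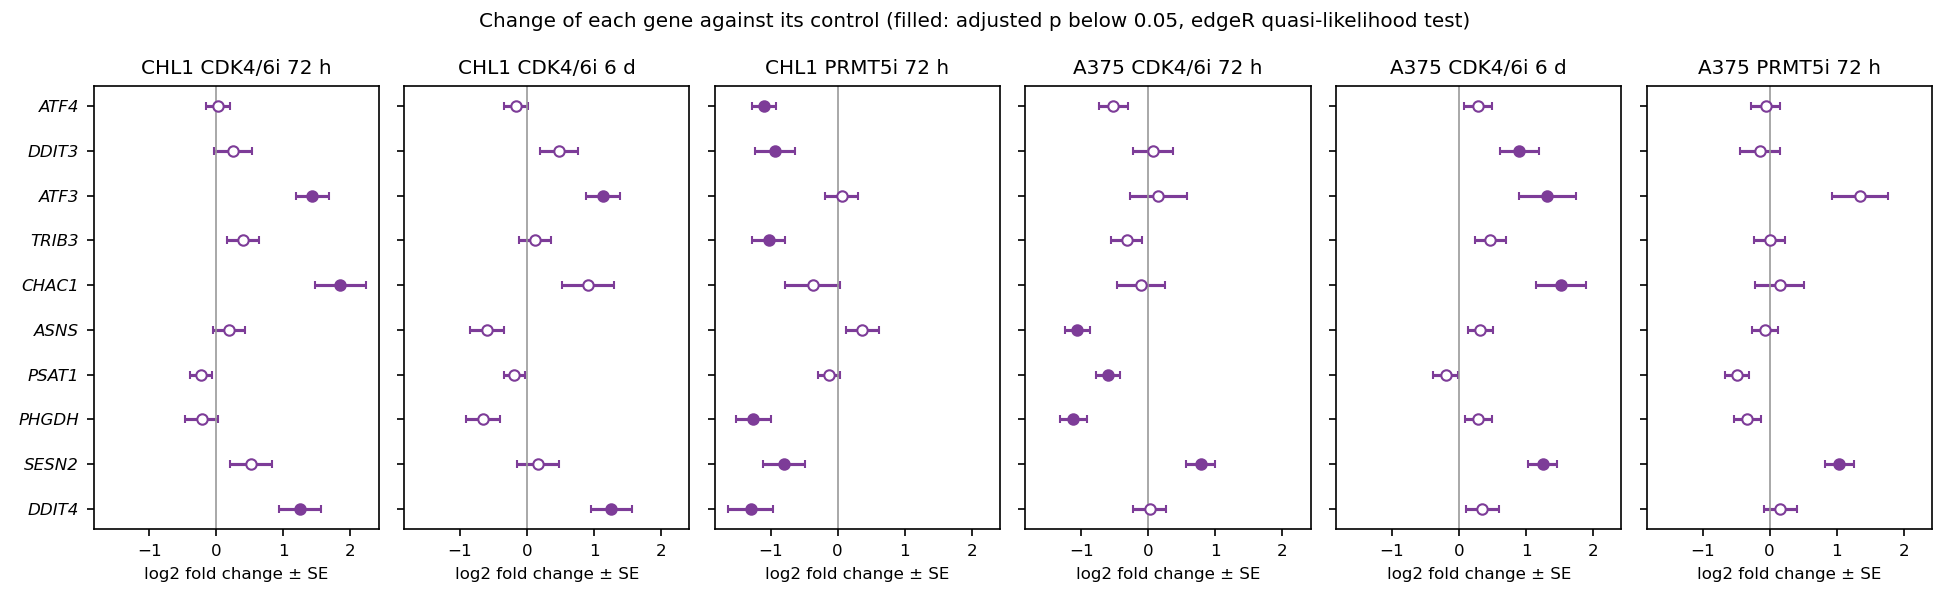
Log2 fold change of each gene against its control (points, bars of 1 standard error, n = 2 libraries per group) in 6 comparisons; filled points passed an adjusted p below 0.05. ATF3 and DDIT4 are filled to the right in both CHL1 CDK4/6i panels, ASNS, PSAT1 and PHGDH to the left in A375 CDK4/6i at 72 hours, and SESN2 to the right in all 3 A375 panels.

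A375 gave a different list at 72 hours: the enzymes ASNS, PHGDH and PSAT1 fell and SESN2 rose, where 13.3% of all genes passed the test (6.22% higher, 7.11% lower). PHGDH measured 180 and 198 CPM in the controls and 90.2 and 90.9 CPM under CDK4/6i, 2.17-fold lower (-1.12 ± 0.20, adjusted p = 0.00167). ASNS measured 46.9 and 61.6 CPM and then 25.1 and 29.0 CPM, 2.09-fold lower (-1.06 ± 0.19, adjusted p = 0.00208). PSAT1 measured 143 and 181 CPM and then 106 and 116 CPM, 1.52-fold lower (-0.60 ± 0.18, adjusted p = 0.0382). The treated libraries lay below both controls in each enzyme. SESN2 moved the other way, from 19.3 and 20.1 CPM to 31.2 and 39.2 CPM, a 1.72-fold rise (0.78 ± 0.22, adjusted p = 0.0284) with no overlap.

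Of the members that rose in CHL1, none passed the test in A375 at 72 hours: ATF3 was at 0.15 ± 0.42, CHAC1 at -0.11 ± 0.36 and DDIT4 at 0.02 ± 0.25. ATF4 measured 172 and 199 CPM in the controls and 140 and 129 CPM under CDK4/6i. This difference of -0.52 ± 0.21 did not pass (adjusted p = 0.107), but with the GC correction both ATF4 (-0.65, adjusted p = 0.00294) and TRIB3 (-0.52, adjusted p = 0.0110) were called lower. The 4 calls above held with that correction, under which 28.6% of the genes with a GC value passed (18.3% uncorrected). PHGDH kept its call whichever library was left out, and ASNS lost it without control replicate 2 (adjusted p at most 0.0679) or without CDK4/6i replicate 1. PSAT1 (-0.76 to -0.40) and SESN2 (0.60 to 0.93) lost theirs without any 1 of the 4 libraries.

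After 6 days in A375, against the control of 6 days, DDIT3, ATF3, CHAC1 and SESN2 rose and no member fell. Of all genes 43.1% passed the test in either direction, a share close to the 4 of 10 members, and 21.8% were higher and 21.3% lower. SESN2 measured 10.9 and 15.1 CPM in the controls and 28.0 and 34.2 CPM under CDK4/6i, a 2.38-fold rise (1.25 ± 0.22, adjusted p = 0.000446). CHAC1 went from 1.11 and 1.91 CPM to 2.68 and 6.04 CPM, 2.86-fold (1.52 ± 0.37, adjusted p = 0.00415), and DDIT3 from 2.95 and 3.26 CPM to 4.75 and 6.84 CPM, 1.86-fold (0.90 ± 0.29, adjusted p = 0.0196). These 3 genes did not overlap between the groups, and neither did TRIB3, ASNS, PSAT1 and PHGDH, which were not called. ATF3 did overlap: its controls were at 2.37 and 4.85 CPM and its treated libraries at 4.26 and 14.0 CPM (1.32 ± 0.42, adjusted p = 0.0192). Without treated replicate 2 the ATF3 value was 0.24 and the CHAC1 value 0.82, and only SESN2 was still called, while without control replicate 2 ATF3 was at 1.96.

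Both controls of 6 days carry the low abundance of GC-rich transcripts described above. After GC correction, with 42.5% of the genes with a GC value called (52.8% uncorrected), SESN2 (0.70, adjusted p = 0.00524) and CHAC1 (0.99, adjusted p = 0.0411) were still called, DDIT3 (0.62, adjusted p = 0.0736) and ATF3 (1.25, adjusted p = 0.0526) were not, and ASNS was called higher (0.59, adjusted p = 0.00949). Without control replicate 1, DDIT3 and ATF3 lost their calls, and without control replicate 2, ATF4 was at 0.65, TRIB3 at 1.01 and PHGDH at 0.62. Against the A375 control of 72 hours, which belongs to the other library set, 7 members were called, but 6 of them lower. The share of all genes was not counted for that control, but of 67 other pathway genes 8 were called higher and 17 lower. ATF4 was then at -1.13, TRIB3 at -1.12, PHGDH at -1.19, ASNS at -0.71 and DDIT4 at -0.70. Against the control of 6 days these 5 genes were at 0.28 to 0.47 without the GC correction, and none was called. With that control and the correction, ATF4 was at -0.23, TRIB3 at -0.05, PHGDH at -0.11 and DDIT4 at -0.21, none called. The direction of these 5 genes at 6 days thus depended on which control was used. For ATF4, TRIB3, PHGDH and DDIT4 it also turned with the GC correction alone.

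The change at 6 days was tested against the change at 72 hours, each from its own control. It was higher for ASNS (1.38 ± 0.27, adjusted p = 0.0230) and PHGDH (1.41 ± 0.28, adjusted p = 0.0236), and 1.08% of all genes passed this test (0.174% higher). For both genes this set a fall at 72 hours beside no call at 6 days (ASNS 0.32 ± 0.19, PHGDH 0.29 ± 0.20). In both genes the controls differed more between the times than the treated libraries did. PHGDH controls measured 180 and 198 CPM at 72 hours and 56.7 and 82.9 CPM at 6 days, and treated libraries 90.2 and 90.9, then 87.5 and 83.7 CPM. ASNS controls measured 46.9 and 61.6, then 30.4 and 24.6 CPM, and treated libraries 25.1 and 29.0, then 34.9 and 33.7 CPM. The controls of 6 days are those with the low abundance of GC-rich transcripts. Corrected for GC content the differences were 1.56 and 1.11 and both passed, where 1.61% of the genes with a GC value did (1.97% uncorrected). Leaving out a 72-hour library or a treated library of 6 days ended both calls, while without 6-day control replicate 2 the test called 6 members. Which of library set and time moved with these values cannot be told apart.

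The change under CDK4/6i at 72 hours was then compared between the lines in a fit of all 18 libraries. By edgeR 0 members passed, with 5 at an unadjusted p below 0.05, where 0.642% of all genes passed. DESeq2 called 2. The largest differences, CHL1 minus A375, were those of CHAC1 (1.90 ± 0.58, adjusted p = 0.169), ATF3 (1.23 ± 0.57, adjusted p = 0.474), ASNS (1.19 ± 0.33, adjusted p = 0.117) and DDIT4 (1.18 ± 0.43, adjusted p = 0.286). CHAC1 (2.00, adjusted p = 0.0488), ASNS (1.23, adjusted p = 0.0308) and TRIB3 (0.77, adjusted p = 0.0308) passed with the GC correction, where 3.8% of the genes with a GC value did (1.13% uncorrected). So the lists called in the lines differed, but whether the members' changes differ between the lines depended on the fit. With the control and CDK4/6i libraries of 72 hours alone in the fit, edgeR called 7 members, all higher in CHL1. The share of all genes under that fit was not counted, so the 7 are not read as particular to the members. Fits of the compared groups alone also raised the calls among the 67 other pathway genes described below, from 1 to 15 in CHL1 and from 8 to 29 in A375.

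Of the 6 comparisons with a control, PRMT5i in CHL1 gave the most calls without the GC correction. ATF4, DDIT3, TRIB3, PHGDH, SESN2 and DDIT4 fell and no member rose. Of all genes 54% passed the test in either direction, a share near the 6 of 10 members called, and 26.4% were higher and 27.6% lower. ATF4 measured 157 and 190 CPM against 397 and 356 CPM in the controls, 2.14-fold lower (-1.10 ± 0.18, adjusted p = 0.000383). PHGDH measured 66.1 and 110 CPM against 219 and 210 CPM, 2.40-fold lower (-1.26 ± 0.26, adjusted p = 0.00141), and DDIT4 1.51 and 3.66 CPM against 6.04 and 6.84 CPM, 2.47-fold lower (-1.30 ± 0.34, adjusted p = 0.00601). The DDIT4 value was -0.79 without PRMT5i replicate 1 and -2.07 without PRMT5i replicate 2, and was called in both cases. In the 6 genes each treated library lay below both controls. The other 3 were TRIB3 at -1.03 ± 0.25, DDIT3 at -0.94 ± 0.30 and SESN2 at -0.80 ± 0.31 (adjusted p = 0.0468, lost without either control or without PRMT5i replicate 1). The DDIT3 call was lost without control replicate 1 or PRMT5i replicate 2. ASNS was the only member above both controls in both libraries, at 114 and 104 CPM against 80.9 and 89.7 CPM (0.37 ± 0.24, adjusted p = 0.224).

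These falls ran alongside the base composition of the transcripts. Of the 5 members with a GC content of 56.7% to 61.5%, all but CHAC1 fell, while ASNS and PSAT1, at 42.7% and 42.5%, were not called. ATF4, at 56.7% GC, fell by 1.10 on the log2 scale, and the median of all 759 genes within 1 percentage point of its GC content was -1.11. For PHGDH, at 52.3% GC, the value was -1.26 beside a median of -0.62 over 835 genes. After the correction 34.9% of the genes with a GC value were called (69.7% uncorrected), and 2 members were called lower, PHGDH (-0.73, adjusted p = 0.0334) and PSAT1 (-0.67, adjusted p = 0.00262). ATF4 was then at -0.15 (adjusted p = 0.504), DDIT3 at -0.66 (adjusted p = 0.106) and DDIT4 at -0.30 (adjusted p = 0.430), and TRIB3 (0.16) and SESN2 (0.29) turned to the other side of 0. So did CHAC1, from -0.37 to 0.79, and ASNS, from 0.37 to -0.13, neither of them called with or without the correction. The median of the 1265 genes within 1 percentage point of the GC content of ASNS was 0.55 as counted. PHGDH was the only member called lower both with and without the correction. Both PRMT5i libraries of CHL1 carry the trend, so it cannot be told apart from the treatment in this line.

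**Figure D3:**
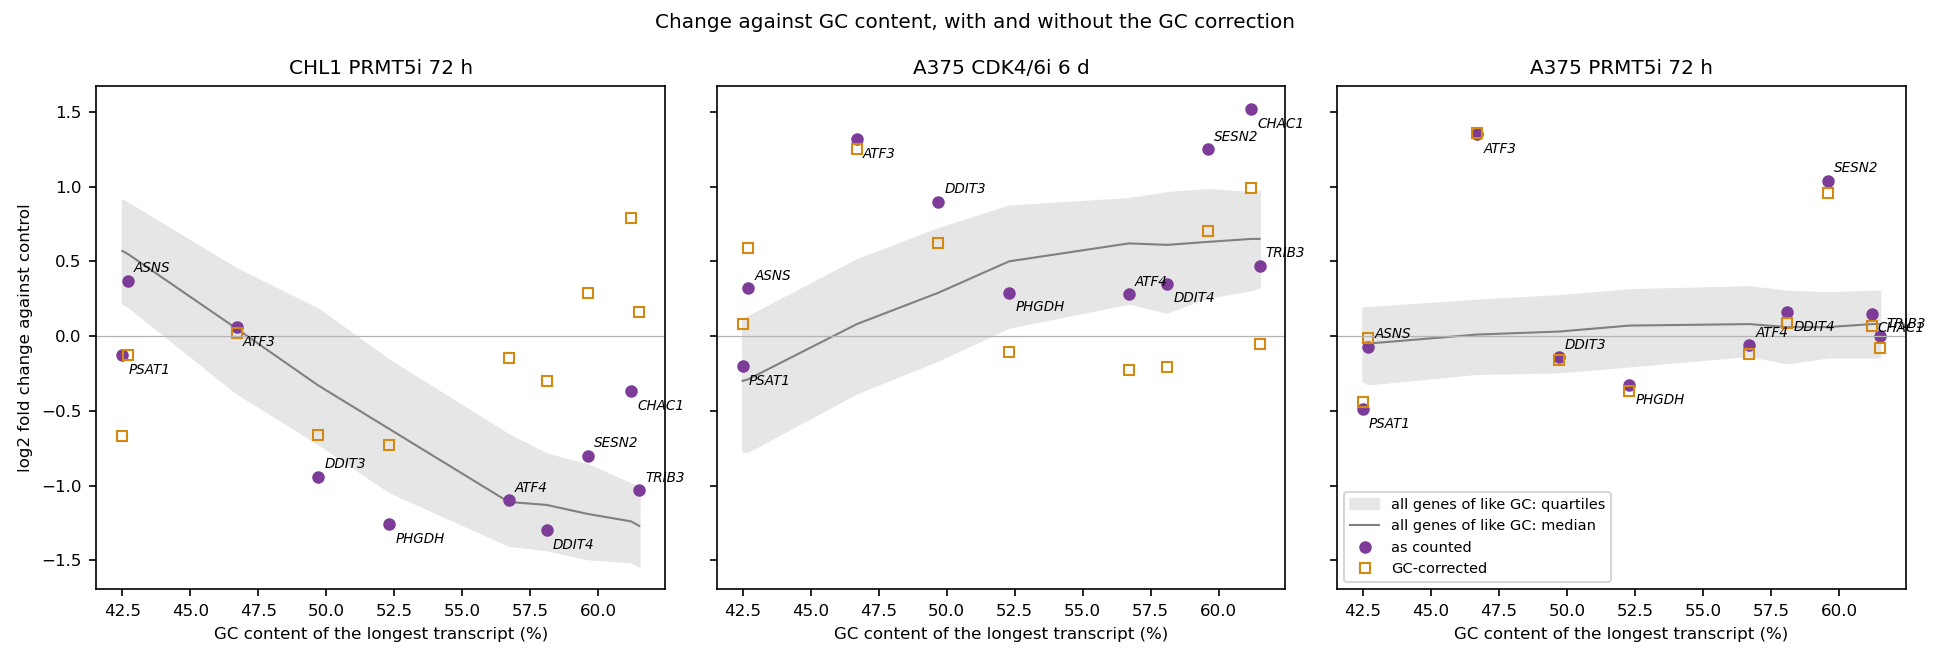
Log2 fold change against control by GC content of the longest transcript (%), for the 10 genes as counted (filled circles, named) and after the GC correction (open squares). The grey line and band give the median and quartiles of all genes within 1 percentage point of each gene's GC content. In CHL1 PRMT5i the line runs from 0.57 at the GC content of PSAT1 to -1.27 at that of TRIB3, and in A375 PRMT5i it stays between -0.05 and 0.08, where SESN2 and ATF3 lie above the band.

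In A375, whose PRMT5i libraries stood at 0.14 and 0.24 on the same measure of GC-rich against GC-poor transcripts, SESN2 alone passed the test, where 2.61% of all genes did (0.874% higher, 1.74% lower). It measured 19.3 and 20.1 CPM in the controls and 35.9 and 45.8 CPM under PRMT5i, a 2.05-fold rise (1.04 ± 0.22, adjusted p = 0.0212) with no overlap, at 0.96 (adjusted p = 0.00629) with the GC correction, where 10.3% of the genes with a GC value passed (2.65% uncorrected). Without any 1 of the 4 libraries the call was lost, at 0.86 to 1.19. ATF3 had the largest difference, from 8.35 and 7.18 CPM in the controls to 18.5 and 21.4 CPM under PRMT5i (2.55-fold, 1.35 ± 0.42), and these groups did not overlap, but it did not pass (adjusted p = 0.102). Its level in A375 PRMT5i was the highest of all 9 groups. For ATF4, with 173 and 188 CPM under PRMT5i, the difference was -0.06 ± 0.21, for TRIB3 0.00 ± 0.23 and for ASNS -0.07 ± 0.19. PSAT1 (-0.49 ± 0.18, adjusted p = 0.175) and PHGDH (-0.33 ± 0.20, adjusted p = 0.445) lay below both controls without passing. When the fit held the A375 libraries of 72 hours alone, an alternative chosen after seeing the data, ATF3 (adjusted p = 0.000229), PSAT1 (adjusted p = 0.0223) and PHGDH (adjusted p = 0.0434) were called as well. The share of all genes under that fit was not counted, so these calls are not read as particular to the members. Calls among the 67 other pathway genes described below went from 7 to 15 with it.

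Set side by side at 72 hours, CDK4/6i and PRMT5i share their controls. Compared with each other directly in A375, ASNS was 1.99-fold (0.99 ± 0.19, adjusted p = 0.00867) and PHGDH 1.73-fold (0.79 ± 0.20, adjusted p = 0.0306) higher under PRMT5i, where 5.45% of all genes passed (2.37% higher, 3.09% lower). For SESN2, which rose under both, the difference was 0.26 ± 0.22 and did not pass. Both calls were lost without any 1 of the 4 libraries, at 0.88 to 1.10 for ASNS and 0.73 to 0.85 for PHGDH. The same comparison in CHL1 called 8 members lower under PRMT5i, where 57.8% of all genes passed (28.4% higher, 29.4% lower). Under the GC correction, with 47.8% of the genes with a GC value called (72.7% uncorrected), DDIT3 (-0.90), ATF3 (-1.46) and DDIT4 (-1.46) kept that call, and PSAT1 gained it (-0.51). The change under PRMT5i differed between the lines, CHL1 minus A375, for ATF4, TRIB3, PHGDH, SESN2 and DDIT4, all lower in CHL1, where 40.9% of all genes passed (18.8% higher, 22.1% lower). Without CHL1 PRMT5i replicate 1, A375 control replicate 1 or A375 PRMT5i replicate 2, ATF4 and SESN2 alone were called. With the GC correction, which called 26% of the genes with a GC value (58.5% uncorrected), no member passed (lowest adjusted p = 0.113, ATF3).

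The rest of the pathway was read from 7 lists of 74 genes, of which 67 had a row. In CHL1 under CDK4/6i at 72 hours only 1 of the 67 passed, beside 4.98% of all genes, the p53 target ZMAT3 (0.97 ± 0.15, adjusted p = 0.00567), a call lost without either control or without CDK4/6i replicate 2. Corrected for GC content, 6 of 65 were higher and 2 lower, beside 16.1% of the genes with a GC value. At 6 days 4 rose and 4 fell, beside 16.6% of all genes, and corrected for GC content 5 of 65 were higher and 9 lower, beside 32.8%. Among the 4 that fell were the mitochondrial folate enzymes MTHFD2 (-0.74 ± 0.21) and MTHFD1L (-0.70 ± 0.18), which use serine-derived carbon. The largest change among the 8 was that of ZMAT3, at 1.38 ± 0.15. Without control replicate 1 the test called 1 of the 67, without control replicate 2 it called 2, and without 6-day replicate 2 it called 4.

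In A375 at 72 hours of CDK4/6i 4 of the 67 rose and 4 fell, beside 13.3% of all genes, and corrected for GC content 5 of 65 were higher and 14 lower, beside 28.6%. The uncorrected count was 3 to 6 in all when 1 library was left out (3 without control replicate 2 or CDK4/6i replicate 1, 4 without CDK4/6i replicate 2). MTHFD1L fell with the serine enzymes among the members (-0.95 ± 0.18, adjusted p = 0.00259), as did ADM2, a peptide hormone gene (-1.87 ± 0.51, adjusted p = 0.0245). DNAJB9, a chaperone gene of the unfolded protein response, rose (1.17 ± 0.30, adjusted p = 0.0161). At 6 days 22 rose and 6 fell, a share near the 43.1% of all genes. Of 12 synthetases 6 were higher and 0 lower (4 and 0 of 11 with the GC correction), led by WARS (0.87 ± 0.19, adjusted p = 0.00171), a tryptophanyl-tRNA synthetase. The neutral amino acid transporter SLC1A4 rose most in its list (1.56 ± 0.18, adjusted p = 1.73e-05), and PPP1R15A, which directs the phosphatase that reverses eIF2 phosphorylation, rose by 1.07 ± 0.25 (adjusted p = 0.00335). With the GC correction these 3 were at 0.49, 1.52 and 0.56 and all passed, and 24 of 65 genes were higher and 7 lower, beside 42.5% of the genes with a GC value. Without treated replicate 1 the test called 15 of the 67, and without 6-day control replicate 2 it called 42.

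Under PRMT5i in A375 all 4 genes with a row in the list of sestrin and DDIT4 relatives and p53 targets rose beside SESN2, while the other 6 lists held 1 rise and 2 falls in all, where 2.61% of all genes passed. CDKN1A, the p21 inhibitor of cyclin-dependent kinases, rose by 1.94 ± 0.28 (adjusted p = 0.00305), MDM2, which targets p53 for degradation, by 1.40 ± 0.18 (adjusted p = 0.00147), ZMAT3 by 1.34 ± 0.21 (adjusted p = 0.00572) and SESN1 by 1.08 ± 0.20 (adjusted p = 0.0103). The rise outside that list was that of GDF15, a stress-induced secreted factor that p53 and ATF4 both activate (2.64 ± 0.23, adjusted p = 0.000106). The cystine transporter SLC7A11 (-0.94 ± 0.20, adjusted p = 0.0195) and CBS, of the transsulfuration pathway (-0.87 ± 0.19, adjusted p = 0.0212), fell. These calls held with the GC correction, but without any 1 of the 4 libraries the test called only 1 to 3 of the 67, all higher. Under CDK4/6i in A375, where SESN2 also rose, CDKN1A was at 1.52 ± 0.28 at 72 hours and 1.32 ± 0.28 at 6 days (corrected 1.37 and 0.83), called each way, and SESN1 at 0.16 ± 0.20, not called, and -0.49 ± 0.19 (adjusted p = 0.0490; -0.01 with the GC correction). Of the list of 4 at 72 hours 2 were higher and 0 lower (median 0.77), and 3 and 0 with the correction (median 0.96). The list of 4 at 6 days went from 1 higher and 1 lower (median 0.19) to 3 higher and 0 lower (median 0.84) with the correction.

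PRMT5i in CHL1 called 31 of the 67 genes lower and 14 higher, beside 54% of all genes and 69.7% of those with a GC value, and 20 lower and 8 higher of 65 with the GC correction, beside 34.9%. The endoplasmic reticulum chaperones HYOU1 (-2.10 ± 0.21, corrected -1.27) and HSPA5 (-0.97 ± 0.19, corrected -1.36) were called lower both ways. SLC7A11 (1.49 ± 0.21, corrected 0.27) was called without the correction only. DNAJB9 was called higher both ways (1.79 ± 0.24, corrected 0.74). In the list of sestrin and DDIT4 relatives and p53 targets, 3 of the 4 genes with a row were called higher and 1 lower (median 0.92). With the correction 1 was higher and 0 lower (median 0.09). The drug target PRMT5 itself was at -0.96 ± 0.20 (corrected -0.44, adjusted p = 0.0639) in CHL1 and at 0.46 ± 0.25 (adjusted p = 0.401) in A375.

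**Figure D4:**
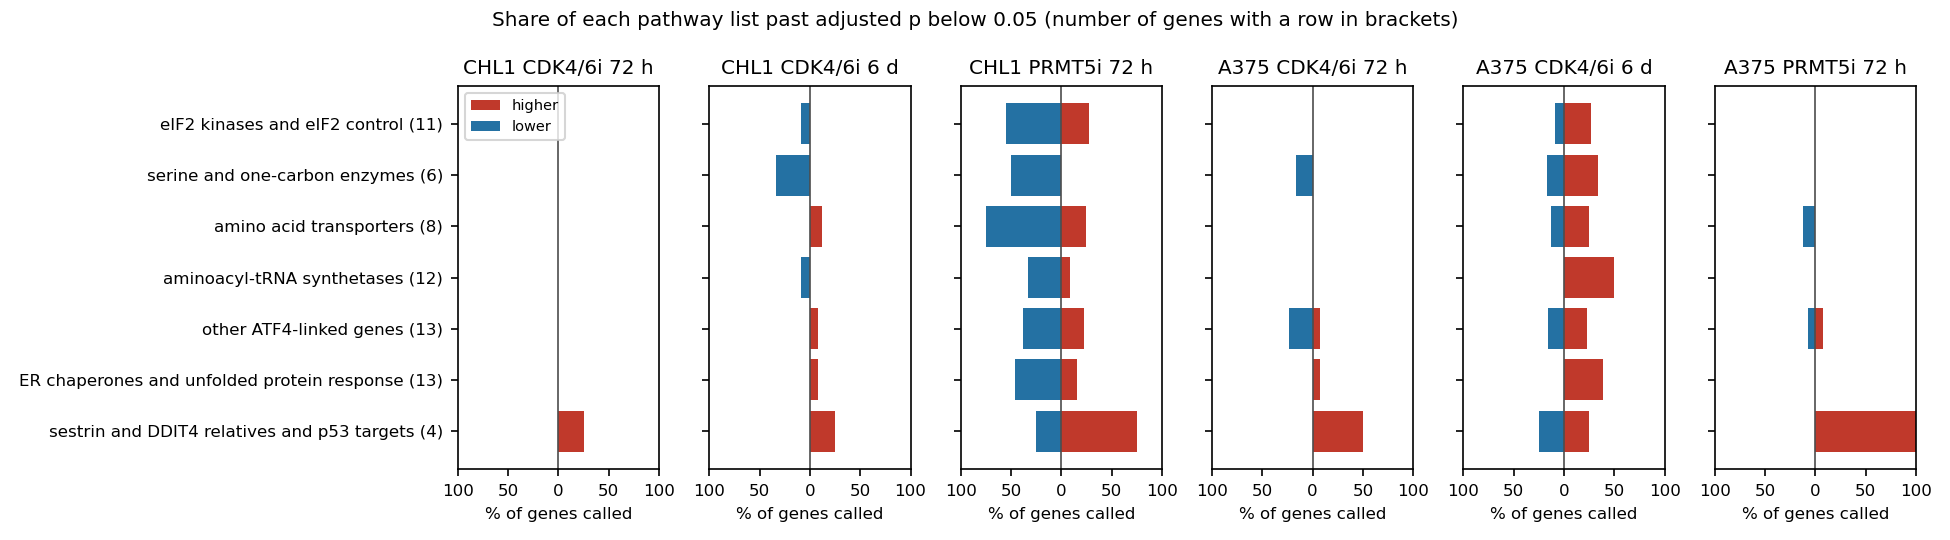
Share of the genes of each of 7 pathway lists (number with a row in brackets) that passed an adjusted p below 0.05, higher to the right and lower to the left, in 6 comparisons. All 4 p53-linked genes are higher in A375 PRMT5i, 6 of 12 synthetases are higher in A375 CDK4/6i at 6 days, and the lists other than the serine and one-carbon enzymes hold calls in both directions in CHL1 PRMT5i.

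Over the 9 group means of log2 CPM, each centred on its line, the genes most like ATF4 were BANF1, PATZ1 and EML2, each with a root mean square difference of 0.09 from it, where the median over 15657 genes was 0.61. Their transcripts hold 58.9% to 61.1% GC, beside 56.7% in ATF4. The nearest other member was TRIB3, at 0.14 and rank 44. ASNS was nearest to SEH1L (0.19), AFG3L1P (0.22) and METTL16 (0.22), and its nearest fellow member, PSAT1, was at 0.37 and rank 1200.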

How the data were processed

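Poly-A libraries (TruSeq RNA, paired ends) were made from 18 samples of CHL1 and A375 cells. The authors aligned reads with HISAT2 2.0.4 to GRCh37, made counts per gene with HTSeq at default settings (0.11.2 in the submitters' processing notes) and removed genes of low expression. The deposited values are whole-number counts for 20705 gene symbols and were used as such.

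Each line was fitted with all its libraries and a mean per group in edgeR 4.0.16 (R 4.3.3), with TMM scaling and the quasi-likelihood test. Differences between lines came from a fit of all 18 libraries. P-values were adjusted over all 20705 genes (Benjamini-Hochberg, threshold 0.05), and the standard error is the log2 fold change over the root of F. Counts per library size (CPM) were scaled by TMM over 18 libraries. The GC correction used, as an offset, a loess curve (span 0.4) of each library's deviation on transcript GC content, for the 13675 genes that averaged 1 CPM or more and had a GC value (GENCODE, GRCh37). GC trends compare GC-rich with GC-poor genes.

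The genes named in the text are all members, drug target genes, the 3 genes nearest to ATF4 and to ASNS and, from each pathway list and line, genes picked by rule: the called gene with the largest rise and the one with the largest fall, at a mean of 1 CPM or more, of which some are not printed. HSPA5, MTHFD2, MDM2, MTHFD1L in CHL1, and SLC7A11, CBS and ZMAT3 in A375 were added after their values were seen. Members and lists were chosen with earlier results of these data known. The alternatives were scaling, filter, samples in the fit, DESeq2 1.42.0, GC content, replicate block, control and leaving out each library. The procedures were tested on simulated data. The paper states that 2 replicates of each culture condition were grown, but not whether they came from independent experiments. P-values therefore measure only the spread between these samples, and the depth of 16213475 to 37424081 counts bears on counting error only.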

Additional observations from a re-analysis of the deposited data

Results flagged for a closer look

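In A375 the change under CDK4/6i at 6 days differed from that at 72 hours by the test of the difference itself for ASNS (log2 difference 1.38 ± 0.27 SE, adjusted p = 0.0230) and PHGDH (1.41 ± 0.28, adjusted p = 0.0236). In that test 1.08% of all genes passed (0.174% higher). In both genes the controls differed more between the times than the treated libraries did. PHGDH controls went from 180 and 198 CPM at 72 hours to 56.7 and 82.9 CPM at 6 days. Its treated libraries went from 90.2 and 90.9 to 87.5 and 83.7 CPM. The controls of 6 days carry the low abundance of GC-rich transcripts. The 2 times come from different library sets, and the part of the set in these values cannot be told apart from that of time.

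The change under PRMT5i differed between CHL1 and A375 by the same kind of test for 5 genes, always lower in CHL1. Of all genes 40.9% passed that test in either direction, a share near the 5 of 10 members, and 22.1% were lower, as all 5 were. Of the genes with a GC value 58.5% passed it without the correction. The log2 differences were -1.07 ± 0.28 for ATF4 (adjusted p = 0.00469), -1.07 ± 0.35 for TRIB3 (adjusted p = 0.0214), -0.97 ± 0.33 for PHGDH (adjusted p = 0.0256), -1.87 ± 0.40 for SESN2 (adjusted p = 0.00156) and -1.50 ± 0.45 for DDIT4 (adjusted p = 0.0127). With the GC correction they were -0.03, 0.24, -0.36, -0.68 and -0.39, and none passed. Over the libraries left out the DDIT4 difference ran from -2.21 to -0.96, without CHL1 PRMT5i replicate 2 and replicate 1, and its call and those of TRIB3 and PHGDH were lost without CHL1 PRMT5i replicate 1, A375 control replicate 1 or A375 PRMT5i replicate 2. The PHGDH call was also lost without CHL1 control replicate 1, while ATF4 and SESN2 were called each time.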

How the results depend on the processing

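Counts below are of the 10 members called and, where "others" is written, of the other pathway genes called. Shares of all genes were counted for the main fits and the fits of genes with a GC value only. The causes of the changes were not tested. When a fit held the compared groups alone, members were 5 (CHL1 CDK4/6i 72 hours, others 15), 2 (A375 PRMT5i, others 13), 0 (A375, 6 days minus 72 hours), 5 (A375 PRMT5i against CDK4/6i) and 7 (CDK4/6i between lines), and others were 29 and 12 in A375 CDK4/6i at 72 hours and 6 days. DESeq2 gave others 6 in CHL1 CDK4/6i at 72 hours and members 2 for CDK4/6i between lines, and median-of-ratios scaling gave others 2 in CHL1 CDK4/6i at 72 hours. With the GC correction members were 2 (CHL1 PRMT5i, others 28), 4 (CHL1 PRMT5i against CDK4/6i), 4 (the same in A375), 3 (CDK4/6i between lines) and 0 (PRMT5i between lines), and others were 8, 14 and 19 in CHL1 CDK4/6i at 72 hours and 6 days and A375 CDK4/6i at 72 hours. It turned TRIB3 to 0.16, SESN2 to 0.29 and the synthetase gene LARS to -0.37 in CHL1 PRMT5i, PSAT1 to -0.51 in CHL1 PRMT5i against CDK4/6i, and TRIB3 to 0.24 for PRMT5i between lines. Such turns are listed here only for genes called with or without the change of processing. With the A375 control of 72 hours, members at 6 days were 7, with ATF4 at -1.13, TRIB3 at -1.12, ASNS at -0.71, PHGDH at -1.19, DDIT4 at -0.70 and SESN1 at 0.42, and the 6 days minus 72 hours values turned to -0.60 (ATF4), -0.80 (TRIB3), -0.07 (PHGDH) and -0.72 (DDIT4). In a fit of all 18 libraries, chosen after seeing the data, members were 1 (CHL1 CDK4/6i 6 days), 0 (A375 PRMT5i), 0 (A375, 6 days minus 72 hours) and 1 (A375 PRMT5i against CDK4/6i), with others 2 in CHL1 CDK4/6i at 72 hours.

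Replicates share numbers across groups, but the labels do not say that a number marks a shared batch. Deviations from group means correlated at -0.344 to 0.458 in CHL1 (14500 genes) and 0.226 to 0.477 in A375 at 72 hours (15064 genes). The A375 values were all positive, and whether its numbers mark a shared batch was not tested. The main fits treated the samples as sharing only a number. With the replicate block members were 1 (CHL1 CDK4/6i 72 hours), 4 (A375 PRMT5i, others 31), 6 (A375 PRMT5i against CDK4/6i) and 1 (CDK4/6i between lines), with others 40 in A375 CDK4/6i at 72 hours. The same libraries without the block, a fit added after seeing the data, gave 4 (others 15), 5 and 3 members for the last 3 of these and others 26. With the block and the GC correction, members were 1 (CHL1 PRMT5i, others 28), 4 (A375 PRMT5i, others 31), 4 and 6 (PRMT5i against CDK4/6i in CHL1 and A375), 5 and 1 (CDK4/6i and PRMT5i between lines), and others 8, 17 and 39 in CHL1 CDK4/6i at 72 hours and 6 days and A375 CDK4/6i at 72 hours. TRIB3 (0.16), SESN2 (0.29), LARS (-0.37) and CDKN1A (0) in CHL1 PRMT5i, PSAT1 (-0.52) in CHL1 PRMT5i against CDK4/6i and TRIB3 (0.24) between lines turned. The A375 labels of 6 days carry no numbers, so no block was fitted there.

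Leaving out 1 library gave 0 to 1 members (others 0 to 1) in CHL1 CDK4/6i at 72 hours, 0 to 2 (others 1 to 8) at 6 days, and 0 to 1 for 6 days against 72 hours. In A375 it gave 1 to 2 (others 3 to 6) in CDK4/6i at 72 hours, 1 to 7 (others 15 to 42) at 6 days, 0 in PRMT5i (others 1 to 3), 0 to 6 for 6 days minus 72 hours and 0 for PRMT5i against CDK4/6i. PRMT5i between lines gave 2 to 5. An arm left with 1 library was assumed to vary like the other groups. The lowest gene, CHAC1, had 37 to 325 reads per library, and its standard errors were among the larger of the members.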
